A study of Mus musculus with 3 samples.

Results

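Immediate early genes and heat shock genes were followed as a set of 35 mouse genes, taken by symbol from the 31053 mouse features of the deposited count matrices and present in all 3 libraries. They fall into 8 genes of the AP-1 transcription factor family, 3 Egr genes, 3 Nr4a genes, 13 feedback and other immediate early genes, and 8 heat shock genes. Single-cell RNA sequencing had been done on 1 library per group, from enzymatically dissociated material. The bladder library came from wild-type C57BL/6 mice of 8 to 9 weeks, pooled from 8 bladders. The other libraries came from bladder assembloids, cultured constructs in which urothelial organoids are combined with stromal cells, pooled from 3 assembloids after 1 day and from 3 after 7 days. No source used here gives the strain or age of the animals behind the assembloid cells. Tissue, culture and the handling of each pool therefore go together with the group and cannot be told apart.

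Immediate early genes are switched on within minutes of a stimulus, before any new protein is needed, mostly through the serum response factor and CREB acting on their promoters. Their products include the Fos and Jun proteins, which pair to form AP-1, the zinc finger activators of the Egr family and the orphan nuclear receptors of the Nr4a family. Others end the response, such as the phosphatase Dusp1 and the RNA-binding protein Zfp36, which destabilises the transcripts themselves. Heat shock genes are driven by heat shock factor when proteins misfold, and encode chaperones that refold them. Both groups are known to respond to the handling and enzymatic digestion of tissue, so their levels in dissociated cells need not be those of the intact organ.

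The promoters below are shown because they carry sites of both responses upstream of genes the results turn on. The windows are the 250 bases before the transcription start in RefSeq, build GRCm38.p6, written along the gene's strand from 5′ to 3′. In the first pair, capitals mark a match to GAANNTTC, a pair of facing heat shock factor units, which starts 104 bases before the start site in both genes. In the other pair, capitals mark TGACGT, the core of the CREB site, on either strand.
Hspa1a, chr17:34972157-34972406, minus strand: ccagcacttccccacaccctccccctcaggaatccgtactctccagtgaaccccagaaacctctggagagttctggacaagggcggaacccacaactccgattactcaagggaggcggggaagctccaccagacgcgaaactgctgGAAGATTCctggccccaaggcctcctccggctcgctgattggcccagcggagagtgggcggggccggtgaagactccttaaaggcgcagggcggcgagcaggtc
Hspa1b, chr17:34959239-34959488, minus strand: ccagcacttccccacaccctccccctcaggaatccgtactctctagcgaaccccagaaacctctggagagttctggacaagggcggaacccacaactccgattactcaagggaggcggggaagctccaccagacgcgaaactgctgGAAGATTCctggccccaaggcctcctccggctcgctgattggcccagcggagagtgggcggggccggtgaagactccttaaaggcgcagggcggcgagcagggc
Fos, chr12:85473640-85473889, plus strand: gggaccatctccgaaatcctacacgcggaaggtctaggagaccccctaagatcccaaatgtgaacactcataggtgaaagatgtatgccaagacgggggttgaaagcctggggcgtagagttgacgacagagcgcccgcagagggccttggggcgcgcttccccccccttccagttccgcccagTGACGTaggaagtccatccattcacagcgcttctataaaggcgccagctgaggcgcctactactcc
Dusp1, chr17:26508473-26508722, minus strand: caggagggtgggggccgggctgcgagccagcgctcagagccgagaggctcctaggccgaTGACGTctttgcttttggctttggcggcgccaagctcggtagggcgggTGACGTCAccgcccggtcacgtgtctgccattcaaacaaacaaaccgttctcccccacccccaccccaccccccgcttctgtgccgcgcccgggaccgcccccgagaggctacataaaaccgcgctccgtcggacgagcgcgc

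Hspa1a and Hspa1b, neighbouring genes for the inducible cytosolic chaperone of the Hsp70 family, were identical at 247 of the 250 promoter bases (98.8%). Their transcripts are near-identical too, so the split of UMIs between them is uncertain and their values are best read as a pair. Fos held 1 TGACGT match, which starts 66 bases before the start site. Dusp1 held 3, of which the farthest starts 191 and the nearest 141 bases before it, and 2 of them overlap on opposite strands. RefSeq windows were found for 28 of the 35 genes. Below, a gene of the set counts if any of its windows matched, whereas the shares of all genes are per window. The counts and shares are therefore unlike measures, and no enrichment can be read from them. GAANNTTC was in 6 of the 28 (Hspa1a, Hspa1b, Hspb1, Dnaja1, Fosl2 and Jun) and in 6.69% of 32851 windows of all genes, both strands searched. TGACGT was in 7 of the 28 (Fos, Atf3, Egr2, Nr4a3, Btg1, Btg2 and Dusp1) and in 6.47% of all windows. The CArG box of serum response factor was in 2 (Egr2 and Zfp36) and in 1.47% of all windows, and GCGGGGGCG, the Egr site, in 7 and in 2.57%. TGACTCA, the AP-1 site, was in 0 of the 28 and in 4.46% of all windows. These are matches of letters, not measured binding. Each site was searched in its strict form within the 250 bases only. A gene without a match may hold sites of looser form or farther upstream.

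The libraries held 8642, 9039 and 9548 barcodes and between 93560608 and 135955678 UMIs (unique molecular identifiers, 1 per captured transcript). After filtering, 6775 bladder, 8258 1-day and 8172 7-day mouse cells were kept. Median UMIs per cell were 7543, 14937.5 and 9399 in that order, and the median mitochondrial share was 4.87% to 5.33%. Cells were put into classes by marker genes. Urothelial cells numbered 2691, 1454 and 2117 in the bladder, 1-day and 7-day libraries, fibroblasts 1441, 2696 and 2660, and endothelial cells 1066, 447 and 935. The median share of its own markers above their mean in a cell was 83.3%, 55.6% and 72.2% for urothelial, 84.6%, 46.2% and 61.5% for fibroblast, and 73.3%, 66.7% and 66.7% for endothelial cells. Of these 3 classes the fibroblast class was the least sharp in culture: 1130 cells at 1 day lay near its boundary against 23 in bladder, and its 13 markers summed to 12350 CPM (a gene's summed UMIs scaled by the total of its class) at 1 day against 64639 CPM in bladder. Cells that took no class were 7.56%, 28.6% and 18.2%.

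The 7-day library held cells of distinct kinds, which has to be said before any 7-day value is read. Of its 8172 kept cells, 4347 (53.2%) had at most 5% of their 30 nearest reference cells in the bladder library, the rest being 1-day cells, and are called assembloid-side below. Another 3558 (43.5%) had at least 95% in the bladder library and are called bladder-side, and 267 (3.27%) lay between. The 35 genes and their wider pathway lists were left out of this placement. Each side was still chosen for likeness to its reference library in other genes, so its closeness to that library is no separate result. Among the reference cells themselves, 99.5% of 1-day cells had at least 95% of their neighbours in their own library. Bladder-side cells were shallower in fibroblasts, with a median of 2516 UMIs against 23335 on the assembloid side, and in endothelial cells (2401 against 9872), but not in urothelial cells (8835 against 7427). The labels used here do not say whether bladder cells were added to the 7-day library, and how its bladder-side cells came to be there was not tested. The 7-day library shared 30 barcodes with the bladder library and 114 with the 1-day library, and the bladder and 1-day libraries shared 21; leaving out the shared 7-day cells moved no count below by more than 1.5 times. Results for 7 days are therefore given for the whole library and for each side, except that myeloid cells (22 bladder-side and 47 assembloid-side) are given for the whole library only and pericytes not for the assembloid side (18 cells).

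Of the 3 main classes in bladder, urothelium had the lowest level for 26 of the 35 genes, and the highest for 3, Fosl1, Nr4a3 and Klf6. The same order was not counted over all genes, so these counts cannot be read as particular to the set. Fos and Hspa1a were higher in fibroblasts and endothelial cells than in urothelium in bladder, and the other way round at 1 day. Fos, the prototype of the family (chr12:85473890-85477273), was at 2795 CPM in bladder fibroblasts, 2376 CPM in endothelial cells and 1294 CPM in urothelial cells. At 1 day it was at 40.5, 79.5 and 819.7 CPM in the same classes. Hspa1a (chr17:34969190-34972156) was at 3944, 3912 and 266 CPM in bladder fibroblast, endothelial and urothelial cells, and at 10.5, 3.54 and 127 CPM at 1 day. Thus of these 3 classes urothelial cells had the lowest level of both in bladder and the highest at 1 day. Hspa1a in bladder urothelium stood at 6.74% of its level in fibroblasts, whereas the 13 fibroblast markers stood there at a median of 0.0787% and at most 0.231% of theirs. At 1 day the 12 fibroblast markers with at least 20 CPM stood in urothelium at a median of 2.27%.

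**Figure D1:**
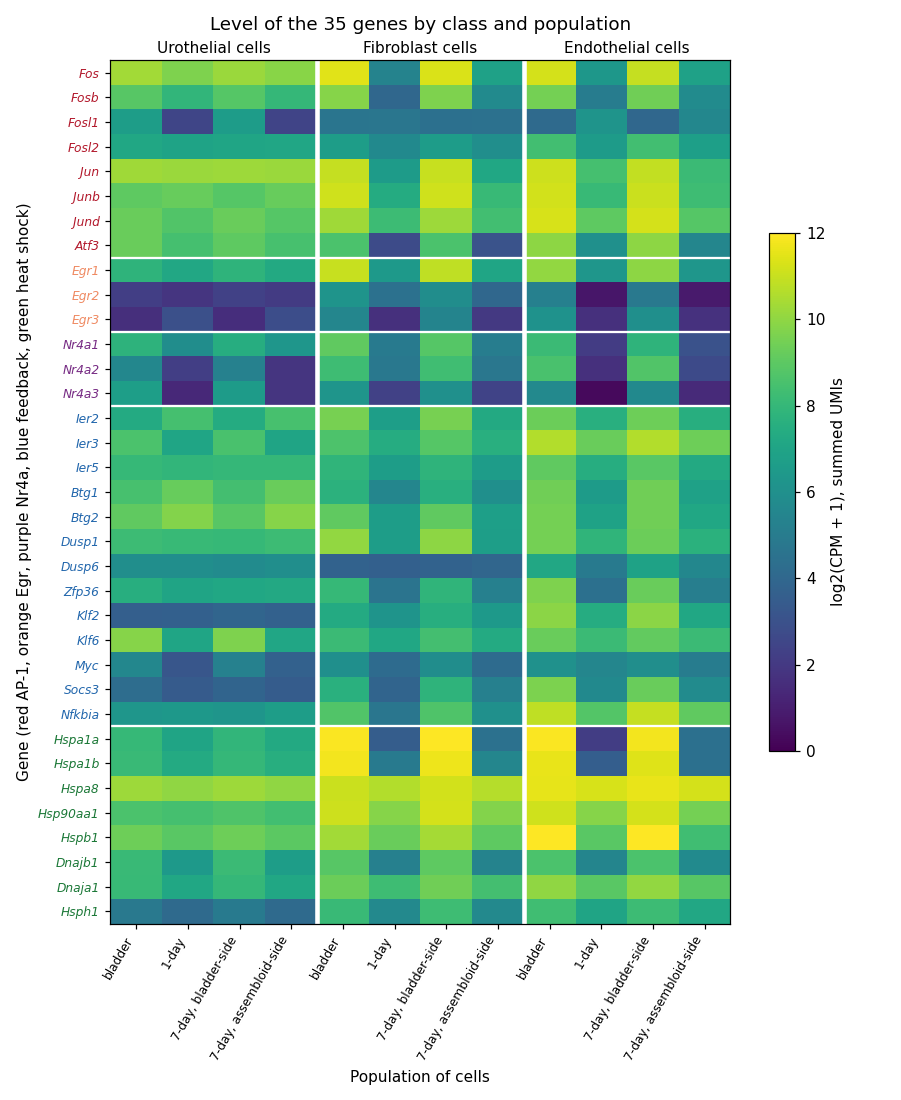
Levels of the 35 genes as log2(CPM + 1) of summed UMIs, rows by gene and role, columns by population within urothelial, fibroblast and endothelial cells. Bladder and 7-day bladder-side columns look alike, and 1-day and 7-day assembloid-side columns look alike, with the widest contrast of the heat shock genes for Hspa1a (3912 against 3.54 CPM in endothelial cells of bladder and 1 day).

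The first comparison asks how assembloid cells of a class differ from those of the bladder 1 day after assembly. A gene was measured where the higher library had at least 20 CPM, and was counted as higher or lower where CPM differed at least 2-fold and the 95% interval of the difference left out equality. These intervals come from the summed UMIs and cover counting error only, since 1 library per group allows no test. In fibroblasts 34 of the 35 genes were measured, and 0 were higher and 31 lower at 1 day, where the same rule over all mouse genes gave 19.1% higher and 19.4% lower. In endothelial cells all 35 were measured, 1 higher and 32 lower, against 22.7% and 22.3% of all genes. In urothelial cells 31 were measured, 1 higher and 9 lower, against 11.1% and 7.11%. The median log2 ratio of the measured genes was -3.07 in fibroblasts, -2.62 in endothelial cells and -0.65 in urothelial cells, where that of all genes was 0.13, 0.10 and 0.23.

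**Figure D2:**
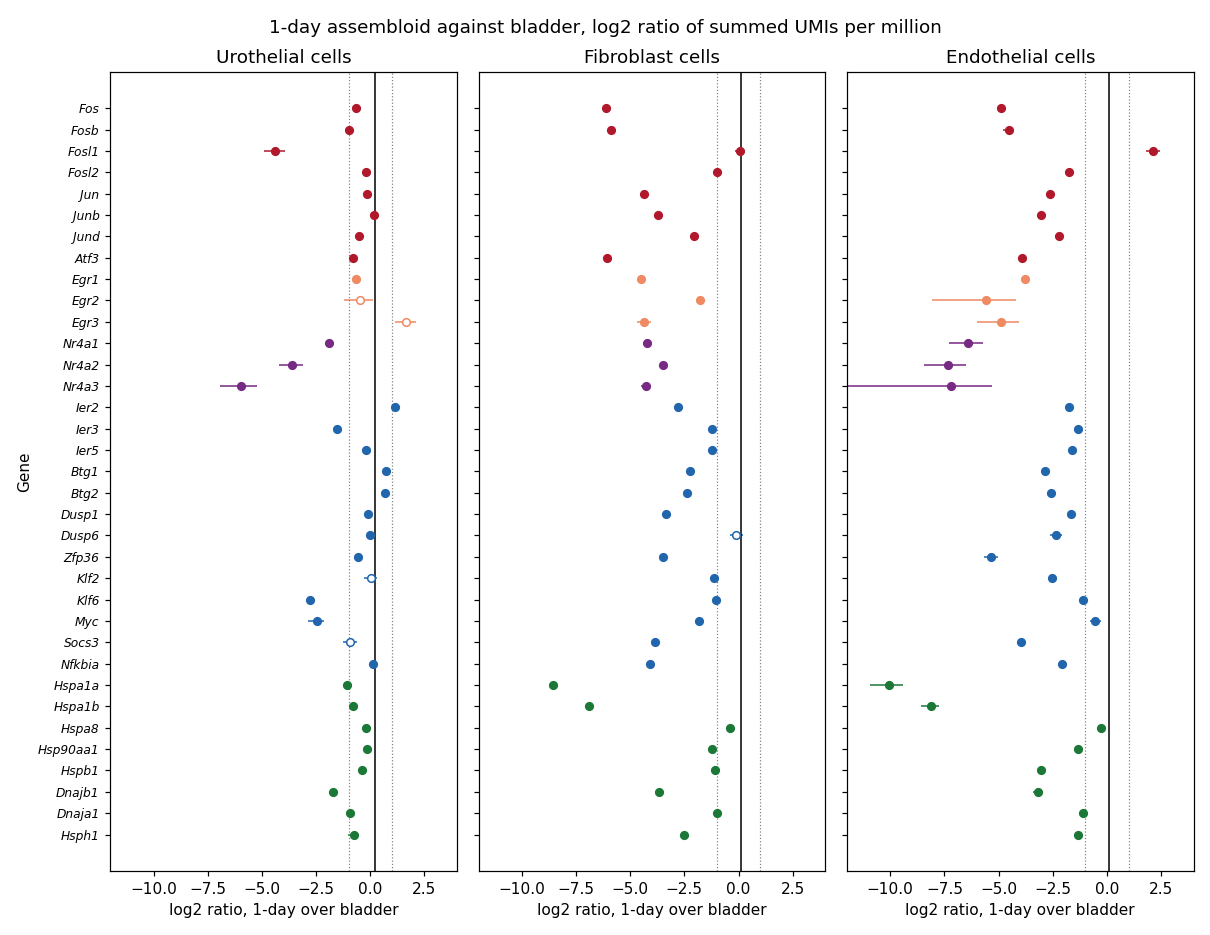
Log2 ratio of CPM, 1-day over bladder, for each gene (points, coloured by role: red AP-1, orange Egr, purple Nr4a, blue feedback, green heat shock) with 95% counting intervals; open points had under 20 CPM in both libraries, the solid line is the median of all genes and the dotted lines are 2-fold. Points reach -8.55 (Hspa1a) in fibroblasts and -10.06 (Hspa1a) in endothelial cells, but most urothelial points lie between the dotted lines.

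All but 1 of the AP-1 genes were lower in both fibroblasts and endothelial cells at 1 day. Fos was 69.0-fold lower in fibroblasts (log2 -6.11, interval -6.17 to -6.05) and 29.8-fold lower in endothelial cells. Its close relative Fosb was at 911 CPM in bladder fibroblasts and 15.2 CPM at 1 day. Atf3, a stress-induced partner of Jun proteins, was at 384 and 5.77 CPM, 66.5-fold lower. Jun itself was at 1976 and 96.5 CPM in fibroblasts and at 2142 and 349 CPM in endothelial cells. Junb was at 2209 and 166 CPM in fibroblasts, and Jund, the most constitutive of the Jun genes, had a smaller difference, at 1258 and 303 CPM. The differences in endothelial cells were of the same direction and mostly smaller than in fibroblasts. There Fosb was at 723 and 31.5 CPM, Atf3 at 982 and 64.2 CPM, Junb at 2292 and 274 CPM, and Jund at 2437 and 519 CPM. In urothelium these genes stayed within 2-fold. Jun was at 1266 and 1161 CPM, Junb at 515 and 582 CPM, and Jund at 621 and 433 CPM. Atf3 was at 618 and 353 CPM, and Fosb, at 467 and 239.97 CPM, came nearest to 2-fold.

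Fosl1, a Fos relative with slower and longer induction, was the exception. It was at 100.2 CPM in bladder urothelium and 4.75 CPM at 1 day, 20.8-fold lower, and at 24.0 and 25.3 CPM in fibroblasts. In endothelial cells it was at 16.8 and 73.5 CPM, 4.38-fold higher (log2 2.13, interval 1.82 to 2.46). The gene overlaps Ccdc85b on the opposite strand, so part of its UMIs could belong to that gene. Fosl1 was the only one of the 35 that was higher in endothelial cells, and it was also higher in smooth muscle cells (11.7 to 30.7 CPM) and glia (11.7 to 30.2 CPM). Fosl2 was within 2-fold in urothelium (142 and 125 CPM) and just past 2-fold in fibroblasts (103 and 51.2 CPM), and was at 325 and 95.5 CPM in endothelial cells.

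The Egr and Nr4a genes were all lower in fibroblasts and endothelial cells. Egr1, which drives growth factor and matrix genes, was at 2022 CPM in bladder fibroblasts and 88.0 CPM at 1 day, 23.0-fold lower. In endothelial cells it was at 1072 and 77.5 CPM, and in urothelium at 226 and 144 CPM. Egr2 and Egr3 stayed below 100 CPM in these 3 classes in all 3 libraries, at most 72.6 CPM (fibroblasts) and 68.1 CPM (endothelial cells), both in bladder. Nr4a1 (Nur77) was at 530 and 28.7 CPM in fibroblasts, 289 and 3.32 CPM in endothelial cells, and 216 and 57.9 CPM in urothelium. The Nr4a genes were the 1 role in which every member was lower in urothelium as well. Nr4a3 was at 104 CPM in bladder urothelium and 1.62 CPM at 1 day, 61.7-fold lower (log2 -5.95, interval -6.91 to -5.23), and Nr4a2 was 12.3-fold lower, at 46.7 and 3.75 CPM. Nr4a2, which is known from dopamine neurons as Nurr1, was at 309 and 27.3 CPM in fibroblasts and at 375 and 2.21 CPM in endothelial cells, there on 10 UMIs at 1 day. Nr4a3 was at 76.4 and 3.97 CPM in fibroblasts. In endothelial cells Nr4a3 rested on 1 UMI at 1 day, so its fitted ratio (log2 -7.19, interval -13.08 to -5.28) has a wide interval.

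Among the 13 feedback and other immediate early genes, 12 of 12 measured were lower in fibroblasts and 12 of 13 in endothelial cells. Dusp1, which dephosphorylates MAP kinases, was at 1046 and 103 CPM in fibroblasts and 726 and 229.9 CPM in endothelial cells. Zfp36 was at 266 and 23.4 CPM in fibroblasts and at 829 and 20.4 CPM in endothelial cells, 40.4-fold lower. Socs3, the brake on cytokine signalling through STAT proteins, was at 792 and 51.4 CPM in endothelial cells and 198 and 13.6 CPM in fibroblasts. Nfkbia, the NF-kappaB inhibitor and target, was at 1841 and 441 CPM in endothelial cells. Klf2, known as a flow-induced endothelial factor, was at 973 and 170 CPM there and at 163 and 73.6 CPM in fibroblasts. Ier2, Ier3 and Ier5 are short-lived products named for their early induction. Ier2 was at 733 and 105 CPM in fibroblasts and 637 and 187 CPM in endothelial cells. Ier3 was at 401 and 171 CPM and at 1558 and 618 CPM, and Ier5 at 233 and 101 CPM and at 529.9 and 176 CPM. Btg1 and Btg2, relatives that slow proliferation, were at 684 and 93.9 CPM and at 720.3 and 120.05 CPM in endothelial cells. Dusp6, the phosphatase of ERK, was at 146 and 28.6 CPM in endothelial cells and under 20 CPM in fibroblasts of both libraries. The smallest differences in endothelial cells were those of Myc (65.3 and 45.0 CPM, within 2-fold) and Klf6 (615 and 286 CPM).

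In urothelium the feedback genes went several ways. Klf6, a zinc finger factor, was at 901 and 129.9 CPM, 6.94-fold lower, Ier3 at 384 and 134 CPM, and Myc at 45.5 and 8.12 CPM. Ier2 was at 160.5 and 356 CPM, 2.22-fold higher (log2 1.15, interval 1.09 to 1.21), the only one of the 35 higher in urothelium. With ratios centred on the median of all genes it no longer reached 2-fold. Btg2, an antiproliferative gene, was at 540 and 868 CPM and Btg1 at 363 and 599 CPM, both within 2-fold. Zfp36 was at 185 and 126 CPM, and Socs3 and Klf2 were under 20 CPM in both libraries. Dusp1 (297 and 274 CPM), Ier5 (266 and 234 CPM), Dusp6 (59.8 and 59.1 CPM) and Nfkbia (77.5 and 84.1 CPM) were close between the libraries.

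The urothelial count moved with the choice of cells by depth. Bladder urothelial cells had a median of 21267 UMIs and 1-day ones 4837.5, with 5.94% and 5.55% mitochondrial UMIs. Over cells of 2500 to 20000 UMIs (1150 of the 2691 bladder and 1355 of the 1454 1-day cells), not thinned, 15 of 32 measured genes were lower at 1 day and 0 higher, where all genes gave 7.29% and 8.44%. With the same cells thinned to 2500 UMIs each, 16 of 32 were lower and 0 higher (all genes: 8.11% and 9.7%), against 9 of 31 and 1 above. In fibroblasts, where depth went the other way (5837 and 18663.5 UMIs), the range and thinning together gave 30 lower and 0 higher of 34 (19.1% and 19.6%). Which cells the range left out, other than by depth, was not tested.

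Among the heat shock genes Hspa1a and Hspa1b had the widest differences and Hspa8 the smallest in fibroblasts and endothelial cells. Hspa1a was 375-fold lower at 1 day in fibroblasts (log2 -8.55, interval -8.68 to -8.43) and 1071-fold lower in endothelial cells, on 16 UMIs at 1 day. Hspa1b was at 3526 and 29.6 CPM in fibroblasts and at 3131 and 11.1 CPM in endothelial cells. Dnajb1, the co-chaperone that hands substrates to these proteins, was at 468 and 37.0 CPM in fibroblasts, and Hsph1, a nucleotide exchange factor, at 278 and 49.3 CPM. Hspb1, a small heat shock protein, was at 4017 CPM in bladder endothelial cells, the highest value of any of the 35 in these 3 classes and 3 libraries, and at 491 CPM at 1 day. Hspa8, the constitutive relative of Hspa1a, was within 2-fold in all of them: 2125 and 1595 CPM in fibroblasts, 2984 and 2471 CPM in endothelial cells, and 1200 and 1039 CPM in urothelium. Dnaja1 was 1.99-fold lower in fibroblasts, just short of the rule, and Hsp90aa1 2.36-fold lower. In endothelial cells Dnaja1, another co-chaperone, was at 1028 and 485 CPM, Dnajb1 at 387 and 42.7 CPM, and Hsp90aa1 at 2266 and 907 CPM. In urothelium only Hspa1a (266 and 127 CPM) and Dnajb1 (283 and 86.4 CPM) of the 8 passed 2-fold. Hspa1b did not pass there, and the split of UMIs between it and Hspa1a is uncertain.

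Most of the genes were lower at 1 day in other classes too. In smooth muscle cells 27 of 34 measured genes were lower at 1 day and 1 higher (all genes: 22.5% and 22.6%), in glia 32 of 35 lower and 1 higher (21.3% and 13.3%), and in myeloid cells 29 of 32 lower and 0 higher (18.9% and 14.8%). The smooth muscle class was far from sharp in culture, so its cells at 1 day may not be the same kind as in bladder. Near its boundary lay 569 cells at 1 day, where 484 took the class, against 163 and 326 in bladder. The median share of its own markers above their mean was 40% at 1 day and 70% in bladder. Fos was at 5302 and 15.5 CPM in smooth muscle, its highest level in the bladder library, and at 5107 and 247 CPM in glia. Jun and Atf3 kept more of their level in glia: Jun was at 2548 and 1231 CPM and Atf3 at 1725 and 673 CPM. Hspa1a was at 4217 and 4.34 CPM in glia and at 3042 and 2.77 CPM in myeloid cells, on 55 and 84 myeloid cells. Cells of no class were at 3578 and 28.1 CPM for Fos and at 2210 and 8.08 CPM for Hspa1a. Pericytes were too few at 1 day (16 cells) to be compared.

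At 7 days the values of the whole library were made up of very different values on its sides. Over the whole library, 8 of 31 genes in urothelium, 10 of 31 in fibroblasts and 21 of 33 in endothelial cells were higher than at 1 day (all genes: 4.28%, 2.13% and 8.02%), and 0, 0 and 1 were lower (4.12%, 0.0886% and 1.7%). Against bladder, 0 of 31, 27 of 34 and 24 of 35 were lower (0.0197%, 16.2% and 10.9%), and 0, 0 and 1 higher (1.38%, 16% and 12.5%). Fos in fibroblasts was at 225 CPM over the whole library, but at 2563 CPM in bladder-side and 116 CPM in assembloid-side cells. Hspa1a in endothelial cells was at 1084 CPM, made up of 3520 CPM on the bladder side and 20.3 CPM on the assembloid side. Bladder-side cells differed from the bladder library by 2-fold in 0 of 31, 0 of 34 and 0 of 34 genes, where all genes gave 0.267%, 0.121% and 0.279% higher and 0.0205%, 0.121% and 0.311% lower. These cells were chosen as like the bladder library in other genes, and these counts lie near the shares of all genes.

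Assembloid-side cells, chosen as like the 1-day library in other genes, were close to it in these genes too. In fibroblasts 5 genes lay apart, and in endothelial cells 1. In urothelium 0 of 26 measured genes differed from 1 day by 2-fold, near the shares of all genes (0.0723% higher and 0.0904% lower). In fibroblasts 5 of 30 were higher and 0 lower (1.38% and 0.0896%), and in endothelial cells 1 of 30 was higher and 0 lower (1.25% and 0.873%). The 5 in fibroblasts were Fos (40.5 to 116 CPM), Fosb (15.2 to 52.7 CPM), Nfkbia (25.4 to 63.9 CPM), Socs3 (13.6 to 36.1 CPM) and Hspa1a (10.5 to 21.4 CPM). The 1 in endothelial cells was Hspa1a (3.54 to 20.3 CPM). Bladder-side cells of the same library had far higher levels of Fos in fibroblasts and of Hspa1a in endothelial cells, as given above. Whether UMIs from other cells of the library add to these low levels was not tested. Hspa1b was not among the genes higher in either class, and the split of UMIs between it and Hspa1a is uncertain. Most genes stayed below bladder: against it, 28 of 34 genes in assembloid-side fibroblasts and 33 of 35 in endothelial cells were lower (17.1% and 20.5% of all genes), and 0 and 1 higher (17.2% and 20.5%). Assembloid-side urothelium kept the 1-day pattern against bladder, with 8 of 31 genes lower and 1, Ier2, higher (6.97% and 10.5%). The 8 were the 9 genes lower at 1 day other than Hspa1a. In urothelium Klf6 was at 828 CPM on the bladder side and 136 CPM on the assembloid side, and Nr4a3 at 95.2 and 2.64 CPM. Ier2 ran the other way, at 167 and 359 CPM, and Btg2 at 467 and 910 CPM.

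The other classes split at 7 days in the same way. The smooth muscle class was again not sharp on the assembloid side, with 287 cells near its boundary and 263 in the class. In smooth muscle cells 13 of 31 genes were higher and 0 lower than at 1 day (all genes: 1.97% and 0.0355%), and 27 of 34 were lower and 0 higher than in bladder (20.6% and 21%). Fos there was at 4907 CPM in bladder-side and 32.2 CPM in assembloid-side cells, and it was the 1 gene of 25 higher than at 1 day on the assembloid side (0.235% higher and 0.0725% lower). None of 33 genes differed between bladder-side smooth muscle and bladder (0.838% higher and 1.59% lower), and 27 of 34 were lower on the assembloid side (21.9%; higher 0 and 22.8%). In pericytes 20 of 35 genes were lower than in bladder and 0 higher (6.99% and 11%), and on the bladder side 0 either way (1.67% lower and 1.77% higher). Pericyte Hspa1a was at 3798 CPM in bladder, 1716 CPM over the whole 7-day library and 3570 CPM on the bladder side.

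Glia, which support the bladder's nerves, kept most of the 1-day pattern on the assembloid side. Of 33 genes 22 were higher than at 1 day over the whole library and 0 lower (8.22% and 3.39%), and of 35 against bladder 28 were lower and 1 higher (18.1% and 12%). Hspa1a was at 5359 CPM in the 93 bladder-side glia and 15.6 CPM in the 60 assembloid-side ones. Bladder-side glia differed from bladder in 0 of 34 genes (3.26% higher and 3.47% lower). Assembloid-side glia had 3 of 28 genes higher than at 1 day, Nr4a1, Ier5 and Hspb1, and 1 lower, Atf3 (673 to 287 CPM), where all genes gave 6.15% and 4.29%. Against bladder they had 32 of 35 lower and 1, Fosl1, higher (21.3% and 14.4%). In myeloid cells 13 of 31 were higher and 0 lower than at 1 day (2.49% and 1.57%), and 28 of 33 were lower than in bladder and 1, Myc, with no UMI in the bladder's myeloid cells, was higher (16.4% and 13.6%).

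The wider pathway lists were read by the same rule, beside the shares of all genes higher and lower given above (11.1% and 7.11% in urothelium, 19.1% and 19.4% in fibroblasts, and 22.7% and 22.3% in endothelial cells). Of 61 genes of signal input and feedback, 41 were measured in urothelium at 1 day against bladder, 6 higher and 17 lower (median log2 -0.59). In fibroblasts 47 were measured, 5 higher and 25 lower (median -1.21), and in endothelial cells 52, 5 higher and 32 lower (median -1.30). Klf4, a zinc finger factor, was at 1153 and 92.9 CPM in fibroblasts, and at 1168 and 87.7 CPM in endothelial cells. Irf1, an interferon-responsive factor, was at 66.1 and 4.57 CPM in fibroblasts. Mafk (118 and 13.2 CPM) and Csrnp1 (89.4 and 9.62 CPM) were lower in urothelium, and Ctgf, a matricellular target of YAP, was higher there (0.58 and 37.4 CPM).

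Of 38 other chaperone and heat shock response genes, 32, 33 and 34 were measured in urothelial, fibroblast and endothelial cells. At 1 day 3, 5 and 8 were higher and 2, 7 and 6 lower, and the medians were 0.06, -0.05 and 0.18, where those of all genes were 0.23, 0.13 and 0.10. These counts lie near the shares of all genes, so they are no result about chaperones. Bag3, a co-chaperone that heat shock factor induces, was at 237 and 55.9 CPM in fibroblasts and at 260.01 and 32.3 CPM in endothelial cells. Dnajb9, of the endoplasmic reticulum, was at 189.8 and 29.3 CPM in fibroblasts. Hspa9, the mitochondrial member of the family, went the other way, at 87.9 and 364 CPM in fibroblasts and 80.0 and 418 CPM in endothelial cells.

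Single cells showed whether the difference lay in all cells of a class or in some. Each cell was thinned to 2500 UMIs, which left out shallower cells (207 of the bladder fibroblasts, 134 of the bladder endothelial cells and 40 of the bladder urothelial cells, and 57, 16 and 98 at 1 day), and UMIs were summed over 8 core genes (Fos, Jun, Egr1, Ier2, Zfp36, Dusp1, Junb and Btg2). The losses of fibroblasts and endothelial cells were larger on the bladder side at 7 days. The sums and correlations of that side rest on 401 of 797 fibroblasts, 268 of 553 endothelial cells and 1424 of 1476 urothelial cells. The median sum was 27 in bladder fibroblasts and 2 at 1 day. The 10th percentile in bladder, 11, was above the 90th at 1 day, 4. In endothelial cells the median was 23 in bladder and 3 at 1 day, with a wider spread in bladder (10th to 90th percentile, 6 to 50). In urothelium the medians were 9 and 10 while the 90th percentile was 27 in bladder and 19 at 1 day. The heat shock sum over its 8 genes had medians of 33 and 9 in fibroblasts, 36 and 11 in endothelial cells, and 8 and 6 in urothelium.

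**Figure D3:**
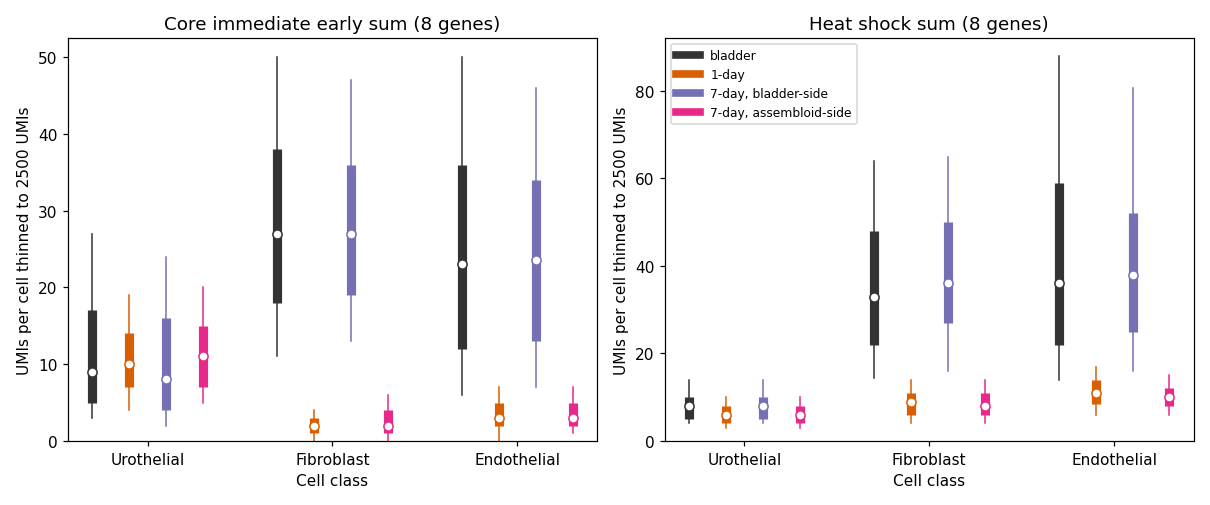
UMIs per cell of the 8 core immediate early genes (left) and the 8 heat shock genes (right) after thinning to 2500 UMIs, by class and population; circles are medians, thick bars the middle 50% of cells and thin lines the 10th to 90th percentile. Bladder and bladder-side fibroblasts both have a core median of 27, 1-day and assembloid-side ones of 2, and urothelial medians run from 8 to 11.

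Hspa1a and Hspa1b were unevenly spread over the urothelial cells of the bladder. Their summed thinned UMIs had a median of 1 per urothelial cell, the top 10% of cells held 56.6% of them, and 47.6% of cells had none. In bladder fibroblasts the median was 16 and the top 10% held 25.9%. In bladder endothelial cells it was 10, the top 10% held 34.3%, and the middle 50% of cells ran from 3 to 26. Such shares also depend on how many UMIs a class has, so they cannot be read apart from its level. At 1 day, with a median of 0, the top 10% held 40.2% in urothelium and 100% in fibroblasts.

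Within the bladder library, of the 3 main classes, co-expression of heat shock genes was strongest in endothelial cells. Over 932 bladder endothelial cells the median Pearson r of log1p UMIs was 0.290 for the 28 pairs of heat shock genes, 0.103 for the 325 pairs of immediate early genes and 0.133 for pairs across the 2 groups. Pairs of all genes with at least 100 CPM had a median of about 0. In bladder fibroblasts (1234 cells) the 3 medians were 0.205, 0.0681 and 0.0657, and in bladder urothelium (2651 cells) 0.0875, 0.0637 and 0.0351. Within the AP-1 group it was 0.242 in endothelium, 0.0798 in fibroblasts and 0.130 in urothelium. The urothelial heat shock median moved with depth: it was 0.0489 over the third of cells in the middle by total UMIs and 0.151 with cells thinned to 5000 UMIs, which also gave 0.101 for urothelial immediate early pairs and 0.344 for endothelial heat shock pairs. These are descriptions over cells of 1 library, which share its pool, and many pairs rest on few UMIs.

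The tightest pair in bladder endothelium was Hspa1a with Hspa1b, at 0.78, although shared sequence could move UMIs between them. Both correlated with Hsp90aa1, the inducible cytosolic Hsp90 gene, at 0.58. Fos correlated at 0.60 with both Egr1 and Jun in these cells, and at 0.60 with Jun in bladder urothelium, where Fos and Jun were found together in 62.4% of cells against 57.6% for the product of their shares. In bladder fibroblasts the leading pairs after Hspa1a with Hspa1b (0.58) were Jun with Egr1 (0.45) and Junb with Egr1 (0.44). At 1 day the highest r was 0.19 in endothelial cells (Ier3 with Nfkbia) and 0.14 in fibroblasts (Hspa8 with Hsp90aa1). Most of the genes had far fewer UMIs in these cells than in bladder, and small counts hold r down. In urothelium at 1 day Fos still correlated with Atf3 (0.32) and Jun (0.31).

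**Figure D4:**
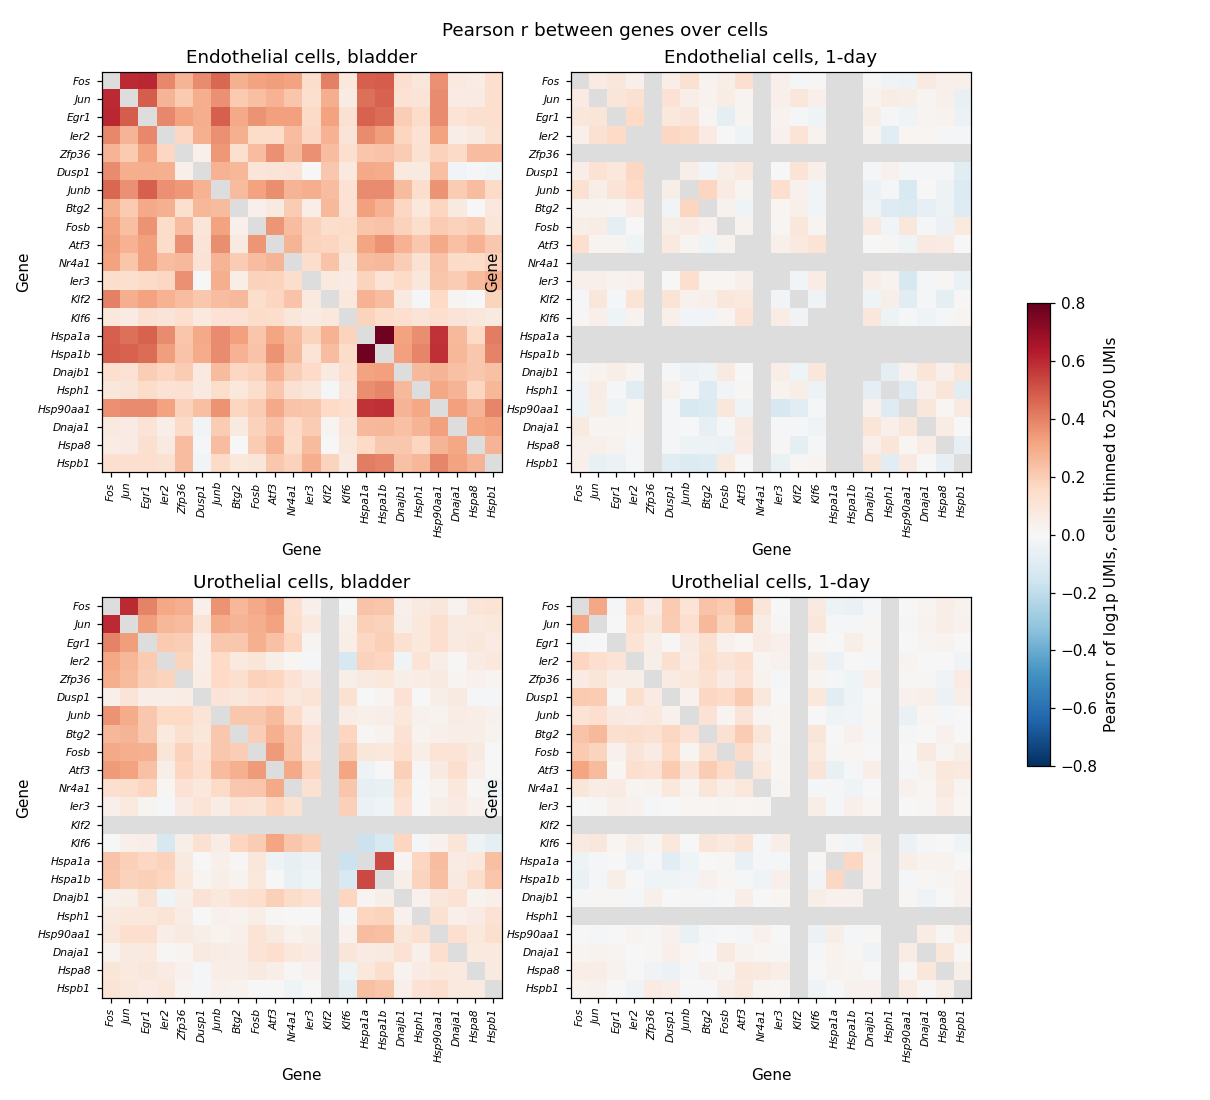
Pearson r between genes over thinned single cells for endothelial (top) and urothelial (bottom) cells in bladder (left) and at 1 day (right); grey marks the diagonal and pairs with a gene under 20 CPM in that population. Hspa1a with Hspa1b is the strongest pair in bladder endothelium (0.78), and the 1-day endothelial panel reaches 0.192 at most. Most genes were lower at 1 day in endothelial cells, and small counts hold r down.

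The core immediate early sum and the heat shock sum of a cell went together in bladder, with r of 0.53 in fibroblasts, 0.53 in endothelial cells and 0.24 in urothelium. At 1 day r was 0.02, -0.06 and 0.03 in the same classes. Bladder-side cells had 0.46, 0.39 and 0.24 and assembloid-side cells -0.04, 0.02 and 0.04. Core medians at 1 day and on the assembloid side were 2 UMIs in fibroblasts and 3 in endothelial cells, against 27 and 23 in bladder. Counting error lowers r at such small counts, so fewer UMIs and looser co-expression cannot be told apart in fibroblasts and endothelial cells. In urothelium the core median was not smaller, at 9 in bladder, 10 at 1 day and 11 on the assembloid side. The urothelial heat shock medians were 8, 6 and 6 in that order. Why r was lower in urothelium was not tested. Over the whole 7-day library r was 0.60 in fibroblasts and 0.73 in endothelial cells, values that span both sides and their different depths. Bladder fibroblasts in the third with the highest core sum had a median of 3.34% mitochondrial UMIs against 4.13% in the third with the lowest, and total UMIs of 6244 and 6351.5. In bladder endothelium the shares were 4.04% and 4.54%, and in bladder urothelium 6.16% and 5.89% with totals of 18423 and 23304.5. The part of cell quality in these relations was not tested.

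Likeness of genes outside the set to both sums was averaged over the 9 combinations of 3 classes and 3 libraries. Among the genes most like the core sum was H3f3b, a histone variant gene, with a mean r of 0.19 (0.04 to 0.47). Others were Ubb (0.19, from -0.0189 to 0.52), Id1 (0.18, from 0.09 to 0.25) and Malat1 (0.18, from -0.0071 to 0.47). Among those most like the heat shock sum were Ubb, with a mean r of 0.24 (0.06 to 0.52), and Hsp90ab1 (0.23, from 0.11 to 0.42). Ddx5 (0.15, from -0.012 to 0.503) and Hspa5 (0.14, from 0.0026 to 0.27) came next. The median over the 547 genes compared was -0.04 and -0.02, and the 7-day sets mix both sides.

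Within bladder urothelium, cells were ranked by the UMIs of the basal keratins Krt5 and Krt15 and the third with the most (884 cells) was set against the third with the fewest. Of the 35 genes 2 were at least 2-fold higher and 0 lower in the keratin-high cells, Nfkbia (143 against 66.5 CPM) and Klf2 (24.0 against 4.52 CPM), where all genes gave 0.662% and 0.623%. Fos was at 1787 and 1240.3 CPM, within 2-fold. At 1 day 0 of the 35 passed in either direction (all genes: 1.29% higher and 2.83% lower).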

How the data were processed

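What the authors deposited are unnormalized UMI counts of 3 libraries from version 3 of the 10x Chromium 3' chemistry, per the labels. Cell Ranger 3.1.0 made them per the file headers, and the submitters' processing notes name the builds GRCh38, mm10 and hg38. Annotation release, cell calling and use of strand are stated in no source used here, so genes overlapping on opposite strands (among them Fosl1 with Ccdc85b, Jun with Junos, Junb with Prdx2 and Dnaja1 with Smu1) are uncertain.

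Barcodes had to have at least 90% mouse UMIs, 500 genes, less than 20% mitochondrial UMIs and no doublet mark from Scrublet in scanpy 1.11.5 (3.39%, 3.28% and 2.41% marked). A marker counted where its share of a cell's UMIs exceeded its mean over kept cells. A class needed 3 markers and 1.5 times the share of the next list. Sides of the 7-day library used 30 neighbours in 30 principal components of 2000 variable genes. UMIs were summed per class and scaled to CPM. Log2 ratios had 0.5 counts added, with exact 95% intervals. With 1 library per group no test was run. The ratio step was tested on simulated data. Python 3.11.15, numpy 2.4.6, scipy 1.17.1 and pandas 2.3.3 were used.

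The members and lists were chosen with earlier results of these data known. Genes with at least 100 CPM in a main class of some library (32 of 35) are given with values, and Egr2, Egr3 and Myc mainly by their highest levels. From each wider list up to 4 genes per class, by absolute log2 ratio, could be named. Gene positions are from GENCODE vM21 on mm10. Of the 5 genes most like each sum, 1 is not reported here.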

Additional observations from a re-analysis of the deposited data

Results flagged for a closer look

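Fosl1 went different ways in different classes, which is what set it apart. Its log2 ratio of 1 day over bladder was -4.38 in urothelial, 0.07 in fibroblast and 2.13 in endothelial cells. From 1 day to the whole 7-day library it was 3.92, -0.25 and -1.10 in the same classes. On the assembloid side alone the urothelial value of that second comparison was -0.0568, on 4.53 CPM. Ier2 was higher at 1 day in urothelial cells (1.15) and lower in fibroblasts (-2.80) and endothelial cells (-1.77). None of these differences between classes was tested, since each group has 1 library.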

How the results depend on the processing

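No paired analysis was possible because each group is 1 library, and there was no replicate to leave out. Of 216 alternative counts of genes higher or lower, 181 stayed within 1.5 times the value given. The choice of cells was tried with those of 2500 to 20000 UMIs only (the range), and with these also thinned to 2500 UMIs (range and thinning). In urothelium at 1 day the 1 gene higher became 0 with centring, with the mean over cells, with the range and with range and thinning, and 2 with no minimum level, and the 9 lower became 15 with the range and 16 with range and thinning. From 1 to 7 days in urothelium the 8 higher became 4 at 100 CPM and 0 on the assembloid side, and the 0 lower became 1 with no minimum and 1 on the bladder side. Against bladder, assembloid-side urothelium had 1 higher and 8 lower in place of 0 and 0, and the range, with or without thinning, gave 1 lower. In fibroblasts the 10 higher at 7 days than at 1 day became 6 at 100 CPM, 21 with the mean over cells, 17 with the range, 22 with range and thinning, 5 on the assembloid side and 31 on the bladder side. The 27 lower than bladder became 14 with range and thinning and 0 on the bladder side. In endothelial cells the 1 higher at 1 day became 0 at 100 CPM. From 1 to 7 days the 21 higher became 1 on the assembloid side, and the 1 lower became 0 there and at 100 CPM. Against bladder the 24 lower became 3 with the mean over cells, 7 with range and thinning and 0 on the bladder side, and the 1 higher became 0 in these settings, at 100 CPM and with an offset of 5 CPM. Both sides and the range without thinning were added as alternatives after the data were seen. Of 132 alternative medians of pair correlations (Spearman's rho, cells of middle depth, thinning to 5000 UMIs), 10 moved by at least 0.05. Sign changes were counted only for genes that were higher or lower by the rule in the results above. Of 3780 single-gene values 26 were such changes, all on 1 of the sides. On the assembloid side against 1 day they were Fosl1 (-0.0568), Nr4a2 (-0.4774) and Ier3 (-0.0597) in urothelium, and Jun (-0.2682), Jund (-0.1726), Atf3 (-0.5073), Egr1 (-0.0062), Klf2 (-0.2584) and Hspb1 (-0.6172) in endothelial cells. On the bladder side against bladder they were Jun (0.0344), Junb (0.0312), Nr4a2 (0.0517), Ier2 (0.0191), Btg2 (0.0373), Socs3 (0.1705), Hspa1a (0.0188), Hsp90aa1 (0.1777), Hspb1 (0.0507), Dnajb1 (0.1599) and Hsph1 (0.1307) in fibroblasts, and Fosl1 (-0.1305), Atf3 (0.0409), Nr4a2 (0.1857), Nr4a3 (0.0949), Hspb1 (0.0571) and Dnajb1 (0.0172) in endothelial cells. Only group medians of at least 2-fold were checked for a change of sign. Group medians that changed sign were those of heat shock (0.1235, fibroblasts; 0.0372, endothelial cells) and Nr4a genes (0.0949, endothelial cells) on the bladder side against bladder, and of AP-1 (-0.0003) and Egr genes (-0.0062) on the assembloid side of endothelial cells against 1 day. The cause was not tested, beyond the choice of cells that defines the sides. Centring moved urothelial ratios by 0.23. Genes under 20 CPM rest on few UMIs in the small classes, and 1 library per group leaves no measure of the spread between animals or cultures.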
